A study of Mus musculus with 48 samples.

Results

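Sodium butyrate at 1 mM was compared with vehicle in STHdhQ111 cells. The comparison was made over 6 of the 48 RNA-Seq samples of the series, chosen by their labels alone: 3 samples of STHdhQ111 with butyrate and 3 of STHdhQ111 with vehicle. Another 6 samples served as a second control: 3 of STHdhQ111 with nicotinamide at 0.5 nM and 3 with nortriptyline at 1 nM, doses far below that of butyrate. STHdhQ111 is a conditionally immortalized murine striatal progenitor line, of C57BL/6 strain by its labels, that is homozygous for a knock-in of mutant huntingtin with an expanded polyglutamine stretch. STHdhQ7 is its counterpart with wild-type huntingtin. Each genotype is a single cell line, so a difference between them is a difference between these lines. All cells were grown at 33 °C in medium with 10% serum and then held for 24 hours in serum-free medium with the compound or the DMSO vehicle. The whole series holds 16 conditions of 3 samples each. For values side by side, 9 further samples were used: 3 of STHdhQ111 with trichostatin A at 10 nM, 3 with haloperidol at 0.5 nM and 3 with fingolimod phosphate at 250 nM. The 3 vehicle samples of STHdhQ7 were used as well. By their labels the 3 samples of each condition compared with butyrate were collected on 3 different days, 1 a day. All of these come from the same line. P-values for genes rest on the spread between samples of a condition, pooled over all 48 samples of the 16 conditions. The STHdhQ7 samples are part of that spread, and the p-values do not reach beyond these lines. The labels do not say more on how separate the cultures were.

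Butyrate and vehicle were matched for day and for time of collection but not for the combination of both. Butyrate, nicotinamide and nortriptyline were collected at time 3 of day 1, time 1 of day 2 and time 2 of day 3. The STHdhQ111 vehicle was collected at time 1 of day 1, time 2 of day 2 and time 3 of day 3, so each condition had 1 sample on every day and 1 at every time, but no sample shared its slot, a day with a time, with a butyrate sample. With time of collection as a further term in the model, 4768 genes were called against vehicle and 2774 the same way against both controls, where 5023 and 2976 were called without it. An effect of single slots beyond day and time cannot be told apart from butyrate in the comparison with vehicle, while the comparison with nicotinamide and nortriptyline holds within slots. The second control is not untreated, and effects of nicotinamide and nortriptyline themselves are part of it.

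Butyrate is a short-chain fatty acid that cells take up through monocarboxylate transporters and burn in mitochondria. It also inhibits histone deacetylases, the enzymes that remove acetyl groups from histones, so that histones become more acetylated and many genes change in transcription. In many cell types its best known targets are H1f0, which encodes the linker histone H1.0 of resting cells, and Cdkn1a, which encodes the cyclin-dependent kinase inhibitor p21. In models of Huntington's disease, inhibitors of these enzymes have been studied because mutant huntingtin disturbs transcription.

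Values are normalized abundances on a log2 scale, from -2.34 to 18.62 over the series. They carry no counts, so the depth behind a value is unknown, and low genes hardly vary, with a median SD over the 48 samples of 0.00511 for genes with a mean under 0 against 0.144 for genes at 6 or more. A fold change on this scale understates the change of low genes. The sums of the values on the linear scale differed by a factor of up to 1.11 between samples, and samples of each of the 4 conditions correlated with each other at 0.9984 to 0.9991 across genes. The striatal progenitor label was checked against markers. In the STHdhQ111 vehicle samples Vim, an intermediate filament of progenitor and mesenchymal cells, had a mean of 15.42, but Nes, Sox2 and Pax6 had means of 4.96, 4.81 and 2.81. Of 5 mature neuron markers, Rbfox3, Snap25, Syt1 and Gad1 were under the minimum. The mesenchymal genes Col1a1 and Col3a1 stood at 14.63 and 12.46, and Ptprc, a leukocyte gene, at 10.59. The cells are called STHdhQ111 here, with no other cell type name.

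Butyrate moved many genes by small amounts and a few by several-fold. Of 13409 genes tested, 5023 were called against vehicle, which is 37.5% (limma, adjusted p under 0.05), 2632 higher (19.6%) and 2391 lower (17.8%). Against nicotinamide and nortriptyline 4132 were called, or 30.8%, 2284 higher (17.0%) and 1848 lower (13.8%). The controls differed from each other too: 1632 genes, 12.2%, were called between nicotinamide and nortriptyline and vehicle, 495 higher (3.69%) and 1137 lower (8.48%). That count fell to 334 without vehicle replicate 1, to 672 without vehicle replicate 2 and to 1051 without nicotinamide replicate 2. The counts against vehicle and against the second control share the butyrate samples, so a gene called against both passed a stricter rule, not a second experiment. Such genes numbered 2976, of which 1758 were higher (13.1%) and 1218 lower (9.08%), and no gene was called in opposite directions. The balance of directions depended on the minimum mean. With a minimum of 5 in place of 1, 1138 were higher and 1214 lower against both controls, and 1868 were higher and 2370 lower against vehicle.

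Large changes were mostly rises. Against vehicle, 478 called genes moved by more than 0.5 on the log2 scale, 380 of them higher and 98 lower, and 40 moved by more than 1, of which 39 were higher. With the same limits in both comparisons, 239 genes were higher and 21 lower at 0.5, and 20 were higher and 0 lower at 1. Since so many genes were called, a share of called genes in a group below is read against the shares of all genes given above. The plot of each gene against both controls shows the tail of rises and the shorter tail of falls.

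**Figure D1:**
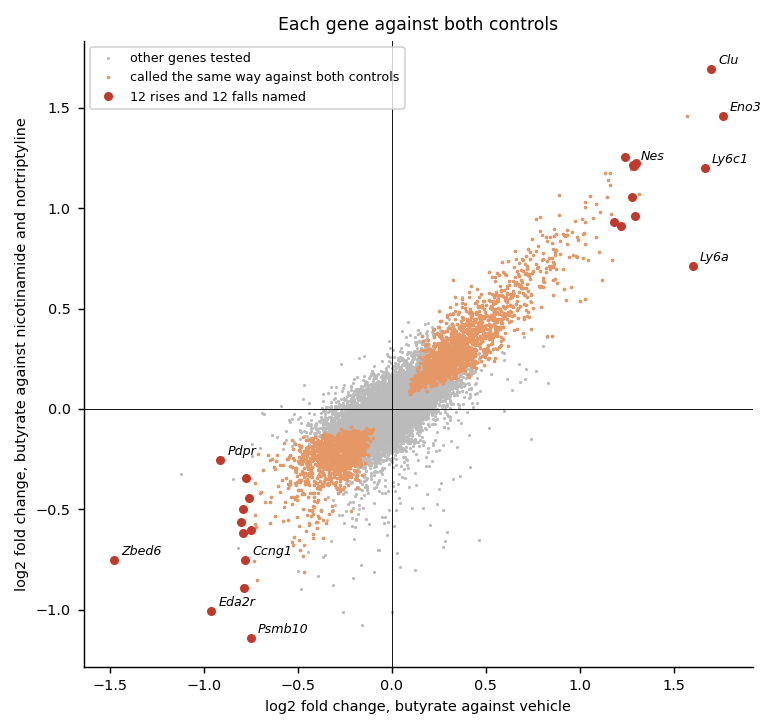
Log2 fold change of each of 13409 genes under butyrate against vehicle (horizontal) and against nicotinamide and nortriptyline (vertical), with genes called the same way against both controls in orange and the 24 named genes in red. The named rises reach 1.76 against vehicle, and the falls Pdpr and Zbed6 lie closer to 0 against the second control than against vehicle. Both axes share the butyrate samples.

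H1f0 rose and Cdkn1a fell. H1f0 stood at 12.19, 12.14 and 12.05 in the butyrate samples, at 11.30, 11.40 and 11.54 with vehicle, and at 11.30 to 11.50 with a median of 11.41 in the second control. Every butyrate sample was above every control sample. The rise was 0.71 ± 0.09 (SE) against vehicle, or 1.64-fold, with an adjusted p of 7.3e-08 (limma), and 0.72 ± 0.08 against the second control. Cdkn1a stood at 9.21, 9.52 and 9.38 with butyrate, at 9.91, 9.75 and 9.82 with vehicle, and at 9.85 to 10.15 with a median of 9.94 in the second control. Here every butyrate sample was below every control sample. Cdkn1a fell by 0.46 ± 0.11 (SE) on the log2 scale against vehicle (adjusted p = 0.00129, limma) and by 0.61 ± 0.10 against the second control (adjusted p = 6.13e-06). With trichostatin A, another histone deacetylase inhibitor of unrelated structure, Cdkn1a had a log2 fold change of -0.63 against haloperidol and fingolimod phosphate from its own collection slots (adjusted p = 1.4e-05). H1f0 was higher there by 0.45 (adjusted p = 5.91e-05).

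The promoters of these genes are shown since they are the best known targets of the compound and moved in opposite directions. All promoter sequences are RefSeq's on build GRCm38.p6, the 250 bases before a start site, written 5′ to 3′ along the gene. Capitals mark 4 short words, each searched on both strands. They are GGGCGG, the box that Sp1 binds, then the promoter word CCAAT, the TATA box word TATAAA, and lastly ACATGT. No 2 of these matches overlap in the sequences shown. ACATGT, letters that binding sites of p53 often hold, was added to the search after the sequences had been read. RefSeq lists 2 starts for Cdkn1a on chromosome 17 and both are given.
Cdkn1a, upstream start, chr17:29090729-29090978, plus strand: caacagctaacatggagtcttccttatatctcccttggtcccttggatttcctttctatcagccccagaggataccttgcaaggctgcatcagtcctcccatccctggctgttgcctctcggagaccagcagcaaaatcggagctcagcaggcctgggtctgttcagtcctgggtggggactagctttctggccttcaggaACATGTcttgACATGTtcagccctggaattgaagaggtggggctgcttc
Cdkn1a, downstream start, chr17:29093519-29093768, plus strand: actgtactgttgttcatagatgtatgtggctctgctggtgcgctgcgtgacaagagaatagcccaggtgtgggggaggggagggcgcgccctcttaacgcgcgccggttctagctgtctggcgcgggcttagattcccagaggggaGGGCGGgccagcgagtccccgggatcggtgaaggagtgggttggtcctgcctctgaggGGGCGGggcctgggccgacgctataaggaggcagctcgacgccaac
H1f0, chr15:79027962-79028211, plus strand: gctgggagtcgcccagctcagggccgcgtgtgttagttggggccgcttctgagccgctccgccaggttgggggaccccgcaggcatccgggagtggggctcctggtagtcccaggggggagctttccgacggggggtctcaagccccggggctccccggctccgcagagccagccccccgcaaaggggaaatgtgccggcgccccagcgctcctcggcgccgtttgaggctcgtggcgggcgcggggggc
The window of the upstream Cdkn1a start held ACATGT at 2 places, the nearer with its first base 39 bases before the start, and that of the downstream start held GGGCGG at 2 places, the nearer 46 bases before it. The H1f0 window held none of the 4 words and had 74.4% G and C.

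Transcripts of most histone deacetylase genes moved little, and enzyme activity was not measured here. Of the 11 histone deacetylase genes Hdac1 to Hdac11, only Hdac11 was called against vehicle. It stood at 7.12, 7.07 and 6.98 with butyrate and at 6.50, 6.52 and 6.60 with vehicle, a rise of 0.52 ± 0.11 (adjusted p = 0.000196), and rose by 0.54 ± 0.09 against the second control. The other 10 lay between -0.19 and 0.08 against vehicle. Hdac1 was called against the second control (0.21 ± 0.04) and had a value of 0.04 ± 0.05 against vehicle, and Hdac10 was called lower against the second control (-0.19 ± 0.07, adjusted p = 0.0311) with -0.19 ± 0.08 against vehicle. The Hdac10 call was lost with nicotinamide alone as control, in a fit of only the samples compared, and without butyrate replicate 1 or 2, nicotinamide replicate 2 or nortriptyline replicate 1. Of 12 acetyltransferases and bromodomain readers, 6 fell and 1 rose against vehicle, where 17.8% of all genes fell. Against the second control 5 fell and 0 rose, where 13.8% of all genes fell. Ep300, the acetyltransferase p300, stood at 10.03, 10.17 and 10.23 with butyrate and at 10.82, 10.71 and 10.54 with vehicle, with a log2 fold change of -0.55 ± 0.08. Against the second control it had one of -0.25 ± 0.07. Its relative Crebbp also fell against both (-0.23 against vehicle and -0.21 against the second control), as did the acetyltransferase Kat6a (-0.49 and -0.19). Brd2, a reader of acetylated histones, fell too (-0.27 and -0.18). The second control was itself below vehicle for Ep300 (-0.30) and Kat6a (-0.29). Both are long, with 14273 and 9180 exonic bases. Of the 2146 genes in the longest of 5 groups by exon length, 933 were lower against vehicle and 420 against the second control.

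Several other histone genes rose with H1f0. Of 15 polyadenylated or replication-independent histone genes, 9 were called higher and 1 lower against vehicle, with a median log2 fold change of 0.30 against 0.0157 over all genes. Against the second control 6 were higher and 1 lower, with a median of 0.12. The second control was itself above vehicle for this list, with 2 called higher, 0 lower and a median of 0.18. Hist1h2bc, an H2B gene, stood at 7.01, 6.89 and 6.81 with butyrate, at 6.13, 6.15 and 6.34 with vehicle, and at 6.46 to 6.58 in the second control, a rise of 0.70 ± 0.17 against vehicle and 0.38 ± 0.14 against the second control. Hist1h1c, a linker histone gene, rose by 0.49 ± 0.13 and 0.38 ± 0.11, and H2afz, the gene of the variant H2A.Z, by 0.31 in both comparisons. H2afy2, which encodes a macroH2A, fell by 0.19 ± 0.06 on the log2 scale against vehicle and by 0.39 ± 0.05 against the second control. H1f0, Hist1h2bc and Hist1h1c are short, with 2055, 1156 and 1560 exonic bases. Of the 2147 genes in the shortest of 5 groups by exon length, 758 were higher against vehicle and 432 against the second control. Some histone genes are near-identical copies of each other, and how the quantification divided reads among such copies is not known.

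Genes described elsewhere as induced by butyrate or other inhibitors of histone deacetylases were mixed. Of 20 listed, 18 were tested, and 8 rose and 3 fell against vehicle while 8 rose and 2 fell against the second control. Tgm2, a transglutaminase that crosslinks proteins, stood at 4.78, 4.91 and 4.90 with butyrate against 3.79, 3.81 and 3.83 with vehicle, a rise of 1.05 ± 0.09. Mt2, a metallothionein that binds zinc, rose by 0.67 ± 0.16 against vehicle and 0.46 ± 0.14 against the second control. Besides Cdkn1a, the member that fell against both controls was Ndrg1, a growth-related gene (-0.46 and -0.37). With trichostatin A the same list had 3 higher and 7 lower.

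The largest rises were in genes of diverse function. The rule took the 12 with the largest rise against vehicle among genes called higher against both controls with a mean of at least 5. It also asked that each butyrate sample lie above both control means, so a separation of the samples is partly built in. In all 12 every butyrate sample was above every vehicle sample and every sample of the second control. The genes were chosen by these values, which are therefore a description.

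Eno3, the muscle form of the glycolytic enzyme enolase, stood at 7.88, 7.88 and 7.62 with butyrate, at 6.12, 6.05 and 5.93 with vehicle, and at 6.18 to 6.43 with a median of 6.36 in the second control. It was higher by 1.76 ± 0.10 against vehicle, 3.39-fold, and by 1.46 ± 0.09 against the second control, 2.75-fold. Clu, which encodes the secreted chaperone clusterin, stood at 6.90, 6.98 and 6.92 against 5.18, 5.19 and 5.33 with vehicle and 5.09 to 5.44 in the second control. Its difference against the first and the second control was 1.70 ± 0.08 and 1.69 ± 0.07. Ly6c1, a surface protein of the Ly6 family, stood at 7.24, 7.26 and 7.19 against 5.64, 5.40 and 5.66 with vehicle, and its neighbour Ly6a, known as Sca-1, at 9.04, 8.76 and 8.71 against 7.52, 6.97 and 7.21. Ly6c1 lay at 5.84 to 6.14 and Ly6a at 7.87 to 8.44 in the second control, above vehicle in all 6 samples, so that their differences were 1.67 and 1.60 against vehicle but 1.20 and 0.71 against the second control. Ly6 genes have close copies next to them, and reads shared between copies make their levels uncertain.

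Several of the other rises are known from neurons, glia or progenitor cells. Adgrg1, an adhesion receptor of neural progenitors, stood at 8.02, 8.05 and 7.94 with butyrate and 6.73, 6.71 and 6.67 with vehicle (1.30 ± 0.13). Nes, the progenitor filament nestin, stood at 6.34, 6.26 and 6.14 against 5.20, 4.97 and 4.72 (1.29 ± 0.34), far below its mean of 10.95 in STHdhQ7. Ndrg2, an astrocyte-enriched gene, was at 7.64, 7.75 and 7.47 against 6.36, 6.28 and 6.39 (1.28 ± 0.10). Atp1b2, the glial beta subunit of the sodium pump, differed by 1.28 ± 0.10, and Syngr1, a synaptic vesicle protein, by 1.24 ± 0.09. These 5 genes differed by 1.06 to 1.25 against the second control. The other 3 were Gsta4, a glutathione transferase that clears lipid peroxidation products (1.29 against vehicle and 0.96 against the second control), Psca, a further Ly6-type surface protein (1.22 and 0.91), and Cxcl1, a chemokine that draws neutrophils (1.18 and 0.93).

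The 12 falls were chosen in the same way and were smaller. Zbed6, a zinc finger gene inside the Zc3h11a gene on the same strand, stood at 4.75, 5.01 and 4.68 with butyrate, 6.35, 6.54 and 5.98 with vehicle and 5.27 to 5.70 in the second control. Its log2 fold change was -1.48 ± 0.30 against vehicle and -0.75 ± 0.26 against the second control, and the second call was lost with nicotinamide or nortriptyline alone as control (adjusted p = 0.0738 and 0.0501), without butyrate replicate 1 or 3 (0.0758 and 0.0915) and without nicotinamide replicate 1 (0.0508). Zc3h11a had 0.11 ± 0.04 and 0.01 ± 0.04, and reads of the 2 genes may not be told apart. Eda2r, a receptor for ectodysplasin that p53 induces, stood at 7.19, 7.28 and 7.30 with butyrate, 8.29, 8.30 and 8.07 with vehicle and 8.06 to 8.40 in the second control, with log2 fold changes of -0.96 ± 0.13 and -1.01 ± 0.11. Ccng1, cyclin G1 and also a p53 target, stood at 10.05, 10.06 and 10.08 against 10.92, 10.87 and 10.75 with vehicle and 10.63 to 10.93 in the second control (-0.78 ± 0.09 and -0.75 ± 0.08).

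Psmb10, a catalytic subunit of the immunoproteasome, stood at 8.91, 8.64 and 8.58 with butyrate, 9.43, 9.33 and 9.63 with vehicle and 9.70 to 9.99 in the second control. It differed by -0.75 against vehicle and -1.14 against the second control. Parp14, an interferon-induced ADP-ribosyltransferase, differed by -0.79 and -0.89, Fbn2, the microfibril protein fibrillin-2, by -0.75 and -0.60, and Abca9, a lipid transporter, by -0.79 and -0.62. The other 5 falls were Pdpr, a regulator of pyruvate dehydrogenase (-0.91 and -0.26), Utp20, a ribosome assembly factor (-0.80 and -0.56), Svep1, an extracellular matrix protein (-0.79 and -0.50), Atm, a kinase of the DNA damage response (-0.77 and -0.34), and Dock5, a Rac activator (-0.76 and -0.44). The call of Pdpr against the second control was lost with nicotinamide alone as control, without butyrate replicate 1 and without nicotinamide replicate 1. In all 12 every butyrate sample was below every vehicle sample, and in 11 below all 6 samples of the second control. Among the named rises and falls, Syngr1, Pdpr, Svep1, Psmb10 and Fbn2 overlap a gene on the other strand in GENCODE, as do Cdkn1a and H1f0, and Zbed6, Parp14 and Dock5 overlap one on their own. Whether the quantification used strand is not given in the sources used here, so reads shared by such pairs cannot be told apart.

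**Figure D2:**
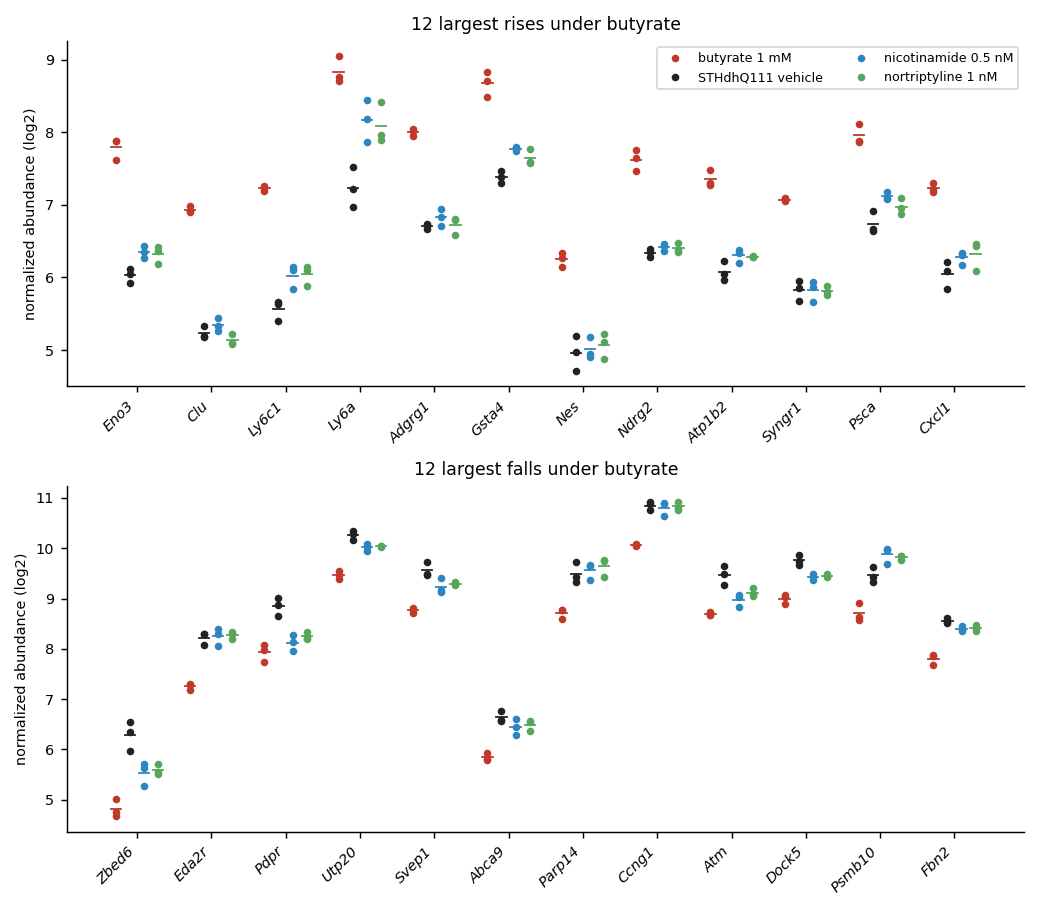
Normalized abundance (log2) of the 12 named rises and the 12 named falls in the 3 samples of each of 4 conditions, with a bar at each mean. The butyrate samples stand above the others for all 12 rises, and Ly6a and Ly6c1 are also higher in nicotinamide and nortriptyline than in vehicle.

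These 24 genes were also read in the trichostatin A samples, compared with haloperidol and fingolimod phosphate. Those samples were not in the comparisons that chose the genes, but they are part of the pooled fit and of the means over the series. Of the 12 rises, 8 were called higher and 0 lower with trichostatin A, and of the 12 falls, 8 were called lower and 0 higher. Over all genes 1931 were called in that comparison (14.4%), 1083 higher (8.08%) and 848 lower (6.32%). Clu differed by 0.54, Gsta4 by 0.71 and Ndrg2 by 0.74, and the 4 rises not called were Eno3 (0.07), Ly6a (0.22), Nes (-0.03) and Cxcl1 (0.15). Psmb10 had -0.75, Svep1 -0.65 and Eda2r -0.54, and the 4 falls not called were Zbed6 (0.15), Pdpr (-0.07), Utp20 (-0.12) and Atm (-0.20). Doses and slots of butyrate and trichostatin A differ, so the sizes were not compared.

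Promoters of the first 2 rises and first 2 falls that RefSeq's table holds are shown because these genes define both tails. Clu is missing from that table. For Ly6c1 RefSeq lists 2 starts, of which the upstream one is shown.
Eno3, chr11:70656926-70657175, plus strand: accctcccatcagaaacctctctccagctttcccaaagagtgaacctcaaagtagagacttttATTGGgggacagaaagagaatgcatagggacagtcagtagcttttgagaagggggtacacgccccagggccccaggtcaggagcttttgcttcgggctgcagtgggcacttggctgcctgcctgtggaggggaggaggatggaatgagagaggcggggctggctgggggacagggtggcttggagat
Ly6c1, chr15:75048838-75049087, minus strand: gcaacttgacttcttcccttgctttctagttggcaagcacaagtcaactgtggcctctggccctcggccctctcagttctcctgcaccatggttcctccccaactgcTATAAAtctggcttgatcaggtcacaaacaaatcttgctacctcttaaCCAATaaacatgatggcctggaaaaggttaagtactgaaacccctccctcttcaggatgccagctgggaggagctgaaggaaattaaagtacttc
Zbed6, chr1:133660886-133661135, minus strand: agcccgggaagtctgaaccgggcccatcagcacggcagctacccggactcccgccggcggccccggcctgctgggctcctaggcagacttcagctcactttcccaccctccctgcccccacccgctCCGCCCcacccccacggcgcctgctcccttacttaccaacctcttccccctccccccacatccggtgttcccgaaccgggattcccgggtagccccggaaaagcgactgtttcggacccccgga
Eda2r, chrX:97377210-97377459, minus strand: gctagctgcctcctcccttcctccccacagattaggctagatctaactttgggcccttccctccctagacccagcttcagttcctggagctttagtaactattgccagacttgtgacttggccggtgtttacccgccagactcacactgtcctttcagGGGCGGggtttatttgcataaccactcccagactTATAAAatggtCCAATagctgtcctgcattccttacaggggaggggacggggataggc
CCAAT was found once in the windows of Eno3, Ly6c1 and Eda2r, GGGCGG once in those of Zbed6 and Eda2r, and TATAAA once in those of Ly6c1 and Eda2r. Over the genes called against both controls the letters hardly separated rises from falls. GGGCGG stood in 60.7% of 1296 promoters of genes called higher, 63% of 942 called lower and 59.8% of 10227 over all genes tested, CCAAT in 32.6%, 34.4% and 36.8%, TATAAA in 7.79%, 6.26% and 6.53%, and ACATGT in 1.85%, 1.38% and 2.03%. The median share of G and C was 60.4%, 60.8% and 60%. These shares carry no test, and a match is not a binding site.

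Cdkn1a was not the only p53 target that fell. p53 is the transcription factor that stops the cell cycle or triggers death after DNA damage. Of 16 genes, p53 itself (Trp53) included, 10 were called lower and 0 higher against the second control, where 13.8% of all genes were lower, and 5 lower and 1 higher against vehicle. The median log2 fold change was -0.23 and -0.13. Trp53inp1, a p53-induced gene of stress and autophagy, stood at 8.99, 8.99 and 9.00 with butyrate, 9.82, 9.75 and 9.60 with vehicle and 9.48 to 9.92 in the second control (-0.73 ± 0.10 and -0.76 ± 0.09). Zmat3, an RNA-binding p53 target, stood at 8.94, 9.15 and 9.16 against 9.63, 9.43 and 9.37 with vehicle (-0.39 ± 0.11 and -0.45 ± 0.09). Trp53 stood at 10.62, 10.73 and 10.61 against 10.75, 10.77 and 10.81 (-0.13 ± 0.05 and -0.23 ± 0.04). Mdm2, which encodes the ligase that degrades p53, was called lower against the second control (-0.38 ± 0.08) and had -0.14 ± 0.09 against vehicle. Gdf15, a stress cytokine, was the member called higher against vehicle (0.44 ± 0.14), with 0.26 ± 0.12 against the second control.

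The median of the 16 genes, taken in each sample as the deviation from the gene means over the 12 samples, was -0.187, -0.083 and -0.121 with butyrate, 0.012, -0.031 and 0.003 with vehicle, 0.228, 0.02 and 0.111 with nicotinamide and 0.165, 0.005 and 0.06 with nortriptyline. The butyrate samples were the lowest 3 of the 12. With trichostatin A 6 of the 16 were called lower and 0 higher. BCL2 family and caspase genes had 5 lower and 1 higher of 17 against vehicle, where 17.8% of all genes were lower and 19.6% higher. Against the second control 6 were lower and 2 higher, where 13.8% and 17.0% of all genes were. Of the 17, 4 were lower and 1 higher against both controls. Bak1 and Bid, which promote cell death, differed by -0.23 and -0.26 against vehicle, Apaf1, the scaffold of the apoptosome, by -0.34, and Bcl2, which protects from death, by 0.32. These members are given against vehicle only, and an effect on cell death was not tested here.

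Interferon-stimulated genes gave a different answer against each control. Of 24 genes, 11 were called lower and 0 higher against the second control, with a median log2 fold change of -0.50, but only Parp14 was called against vehicle, where the median was -0.13. The second control itself was above vehicle, with 7 genes called higher, 0 lower and a median of 0.41. Ifit1, an antiviral RNA-binding protein, stood at 11.78, 11.84 and 11.94 with butyrate, 12.40, 12.13 and 12.37 with vehicle and 12.41 to 12.66 in the second control (-0.45 ± 0.20, adjusted p = 0.0684, and -0.71 ± 0.17, adjusted p = 0.00138). Ifit3 stood at 10.81, 10.55 and 10.66, at 11.09, 10.83 and 11.04, and at 11.31 to 11.69 (-0.31 ± 0.18 and -0.88 ± 0.16). Isg15, a ubiquitin-like protein, stood at 10.49, 10.33 and 10.39, at 10.37, 10.01 and 10.34, and at 10.64 to 11.07 (0.17 ± 0.22 and -0.49 ± 0.19). By sample the median deviation of the 24 genes was -0.116, -0.445 and -0.271 with butyrate and -0.08, -0.343 and -0.165 with vehicle, which overlap, and -0.015 to 0.38 in the 6 samples of the second control. Whether nicotinamide, nortriptyline or the collection slot sets the higher level in the second control was not tested.

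**Figure D3:**
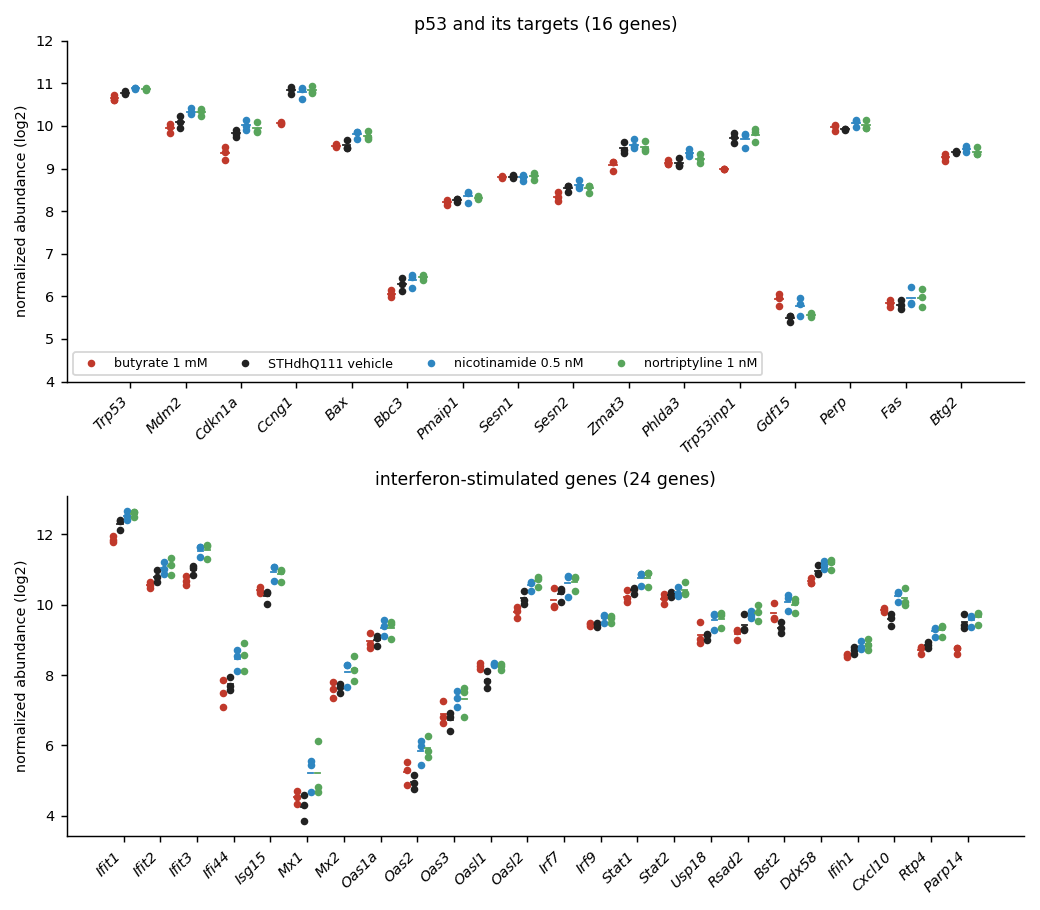
Normalized abundance (log2) of 16 genes of the p53 list and 24 interferon-stimulated genes in the 3 samples of each of 4 conditions, with a bar at each mean. Butyrate lies below vehicle and below both nanomolar compounds for Cdkn1a, Ccng1 and Trp53inp1, and below nicotinamide and nortriptyline for the 11 interferon-stimulated genes called against them, of which Parp14 alone was also called against vehicle.

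Most of the chemokine and cytokine genes that could be tested rose against vehicle. Of 14 listed, 9 were tested, and 7 were called higher and 0 lower against vehicle, where 19.6% of all genes were higher. Against the second control 5 were higher and 0 lower. Cxcl12, the stromal chemokine that guides progenitor cells, stood at 11.48, 11.08 and 11.26 with butyrate, 10.18, 10.26 and 10.32 with vehicle and 10.32 to 10.47 in the second control (1.02 ± 0.14 and 0.87 ± 0.12). Csf1, the growth factor of macrophages, rose by 0.39 and 0.27, and Il33, an alarm cytokine, by 0.40 and 0.39. Ccl2 and Ccl7, which attract monocytes, were called against vehicle (0.38 and 0.39) and not against the second control (0.06 and 0.11). With trichostatin A 0 of the 9 were called higher and 3 lower. Tnf, Il1b, Il6, Ccl20 and Cxcl5 were under the minimum or not in the table.

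Several genes rose in a list that holds targets of the repressor REST and neuronal genes. REST silences neuronal genes in other cells with the help of histone deacetylases, and mutant huntingtin is known to affect its place in the cell. Of 28 listed, 14 were tested. Against vehicle 6 rose and 0 fell, where 19.6% of all genes rose, and against the second control 5 rose and 0 fell, where 17.0% rose. The other 9 were not called against the second control. The list medians were 0.08 against vehicle and 0.02 against the second control, beside 0.0157 and 0.0031 over all genes. L1cam, an adhesion molecule of growing axons, stood at 7.80, 7.99 and 7.85 with butyrate, 6.98, 6.71 and 6.86 with vehicle and 6.70 to 7.05 in the second control (1.03 ± 0.17 and 1.03 ± 0.15). Uchl1, a ubiquitin hydrolase abundant in neurons, stood at 8.55, 8.52 and 8.21 against 7.47, 7.52 and 7.69 (0.86 in both comparisons). Stmn2, a microtubule regulator of growth cones, stood at 4.28, 4.10 and 4.19 against 3.47, 3.33 and 3.27 (0.83 and 0.75). The same 3 genes were called higher with trichostatin A, by 1.01, 0.91 and 1.01. Of the 5 mature neuron markers Slc17a7, a vesicular glutamate transporter, was the only member tested and was higher with butyrate (0.70 and 0.56), while the defining markers Rbfox3, Snap25 and Syt1 stayed under the minimum. The summed level of the 5 markers on the linear scale, nearly all of it Slc17a7, was 66.4 to 84.3 in the butyrate samples, 43.4 to 48.5 with vehicle and 43.2 to 55.9 in the second control, and its part in these results was not tested. In bulk samples, fewer cells of a type and less RNA per cell cannot be told apart. Of 18 actin and tubulin genes 7 rose and 1 fell against vehicle, and 8 rose and 0 fell against the second control. Tubb3, the neuronal tubulin, and Tubb2a, Tubb2b and Tubb6 rose against both controls by 0.19 to 0.45.

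Several glutathione transferases rose. Of 21 NRF2 targets and glutathione genes, 7 rose and 4 fell against vehicle, where 19.6% of all genes rose and 17.8% fell. Against the second control 7 rose and 3 fell, where 17.0% and 13.8% of all genes did. Gstt1 stood at 3.96, 4.11 and 3.82 with butyrate and 3.07, 3.14 and 3.22 with vehicle (0.82 and 0.68), Gstp1 rose by 0.74 and 0.57 and Gstm1 by 0.53 and 0.37, all of them transferases that attach glutathione to reactive molecules. Prdx1, a peroxidase, rose by 0.46 and 0.47. G6pdx and Pgd, the dehydrogenases of the pentose phosphate pathway, had log2 fold changes of -0.18 and -0.22 against vehicle and were called lower against both controls. Gst genes form families of close copies, and their single levels are uncertain.

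Some genes of butyrate uptake and use moved. Of 4 transporter genes tested 3 rose and 0 fell against vehicle, and 3 rose and 1 fell against the second control. Slc16a1, which encodes the transporter MCT1 that carries butyrate, stood at 10.47, 10.42 and 10.50 with butyrate, 10.16, 10.29 and 10.23 with vehicle and 10.01 to 10.19 in the second control (0.23 ± 0.07, adjusted p = 0.0138, and 0.37 ± 0.06, adjusted p = 2.71e-05). The call against vehicle was lost without vehicle replicate 1 (0.20, adjusted p = 0.0776). Bsg, its chaperone basigin, stood at 13.46, 13.51 and 13.42 against 12.95, 12.93 and 13.11 (0.47 and 0.35). Slc16a3, another monocarboxylate transporter, had 0.15 in both comparisons, and the sodium-coupled transporter Slc5a8 had -0.07 (adjusted p = 0.156, limma) and -0.11 (adjusted p = 0.0132). The receptors Ffar2, Ffar3 and Hcar2 were under the minimum or not in the table. Of 22 genes of fatty acid and butyrate oxidation 6 rose and 3 fell against vehicle, and 5 rose and 2 fell against the second control. The list had 13 and 15 genes not called. Beside these counts, 19.6% of all genes rose and 17.8% fell against vehicle, and 17.0% and 13.8% against the second control. Among the rises were Hadh (0.41 and 0.38), Acadvl (0.33 and 0.30) and Etfb (0.44 and 0.30), which act in beta-oxidation or pass on its electrons. Oxct1, the enzyme of ketone body use, had -0.26 and -0.20.

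The sterol synthesis genes that passed the test all fell. Of 23 genes 8 were called lower and 0 higher in each comparison, 5 of them against both, with medians of -0.19 and -0.14. Of all genes 17.8% were lower against vehicle and 13.8% against the second control. Lss, which closes the sterol rings, stood at 11.20, 11.08 and 11.18 with butyrate, 11.59, 11.73 and 11.65 with vehicle and 11.36 to 11.49 in the second control (-0.50 ± 0.10 and -0.26 ± 0.09). With trichostatin A 5 of the 23 were lower and 0 higher.

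Targets of ATF4 rose in part. ATF4 is the transcription factor of the integrated stress response. Of 20 genes, 7 rose and 0 fell against vehicle, where 19.6% of all genes rose and 17.8% fell. Against the second control 7 rose and 1 fell, where 17.0% and 13.8% of all genes did. Atf3, a stress-induced transcription factor, stood at 8.21, 8.27 and 8.10 with butyrate, 7.20, 7.06 and 7.24 with vehicle and 7.14 to 7.38 in the second control (1.03 ± 0.14 and 0.93 ± 0.12). Cebpb rose by 0.65 and 0.47, Trib3, an inhibitor of Akt, by 0.62 and 0.47, and Chac1, which degrades glutathione, by 0.60 and 0.54. The chaperones of the endoplasmic reticulum showed no such rise, with 2 higher and 3 lower of 16 against vehicle and 0 higher and 1 lower against the second control. Txnip, an arrestin-like brake on glucose uptake, stood at 11.37, 11.45 and 11.27 against 10.56, 10.55 and 10.68 with vehicle (0.77 and 0.95), while 17 of the 23 genes of glycolysis and pyruvate metabolism were not called against vehicle.

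The cell cycle genes differed by list and by control. Of 15 cyclin-dependent kinase inhibitors and cyclins, 3 rose and 3 fell in each comparison. Cdkn1c, which encodes p57, stood at 8.23, 8.19 and 8.08 against 7.58, 7.48 and 7.81 with vehicle (0.54 and 0.42), and Ccnd1, cyclin D1, at 8.79, 8.99 and 8.95 against 8.30, 8.27 and 8.34 (0.60 and 0.38), while Cdkn1b and Cdkn2c, which encode p27 and p18, were called lower. Of 32 genes of DNA replication and mitosis 7 rose and 6 fell against vehicle, where 19.6% of all genes rose and 17.8% fell. Against the second control 12 rose and 2 fell, where 17.0% and 13.8% of all genes did. Against both controls 7 of the 32 rose and 2 fell. Tk1, a thymidine kinase of S phase, rose by 0.44 and 0.34, and Aurkb, a mitotic kinase, by 0.35 and 0.37. Mki67, the proliferation marker, had 0.13 (adjusted p = 0.352) against vehicle and 0.32 (adjusted p = 0.00723) against the second control.

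The cathepsins Ctsb, Ctsd, Ctsl and Ctsz, proteases of the lysosome, rose against both controls, with Ctsl at 12.89, 12.83 and 12.83 against 12.22, 12.21 and 12.20 with vehicle (0.64 and 0.51) and Ctsb at 0.36 in both comparisons. The list of 24 lysosomal genes as a whole did not rise with them against vehicle, where 5 rose and 2 fell. Against the second control 7 rose and 4 fell, and the list medians were 0.06 and 0.04. Of all genes 19.6% rose and 17.8% fell against vehicle, and 17.0% and 13.8% against the second control. Of 22 collagens and their modifying enzymes 5 rose and 2 fell against vehicle and 7 rose and 0 fell against the second control. Col18a1, a basement membrane collagen, stood at 9.42, 9.70 and 9.67 against 8.94, 8.74 and 8.81 with vehicle (0.77 and 0.72). The summed level of the 5 mesenchymal markers on the linear scale was 47000 to 51000 in the butyrate samples, 38300 to 43700 in the vehicle samples and 40400 to 48100 in the second control. Col1a1, the highest of the 5 and itself in the collagen list, was the only member called against either control. Means with butyrate and vehicle were 13.02 and 13.03 for Col1a2, 10.69 and 10.77 for Pdgfrb, and 4.81 and 4.57 for Acta2. Col3a1 had 12.77 and 12.46, but 12.81 with nicotinamide and 12.85 with nortriptyline. The median log2 fold change of the 5 was 0.24 against vehicle and -0.02 against the second control. The part of these markers in the results was not tested. Of 5 microglia and macrophage markers Aif1, Cx3cr1 and P2ry12 were under the minimum, while Csf1r and Ptprc passed it. Of the endothelial markers Cdh5 was under it, while Pecam1, Kdr and Tek passed. Pecam1 had means of 8.23 with vehicle, 8.56 with butyrate, 8.58 with nicotinamide and 9.23 with nortriptyline. The summed endothelial level overlapped between conditions, at 301 to 468 with butyrate, 203 to 578 with vehicle and 252 to 736 in the second control.

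**Figure D4:**
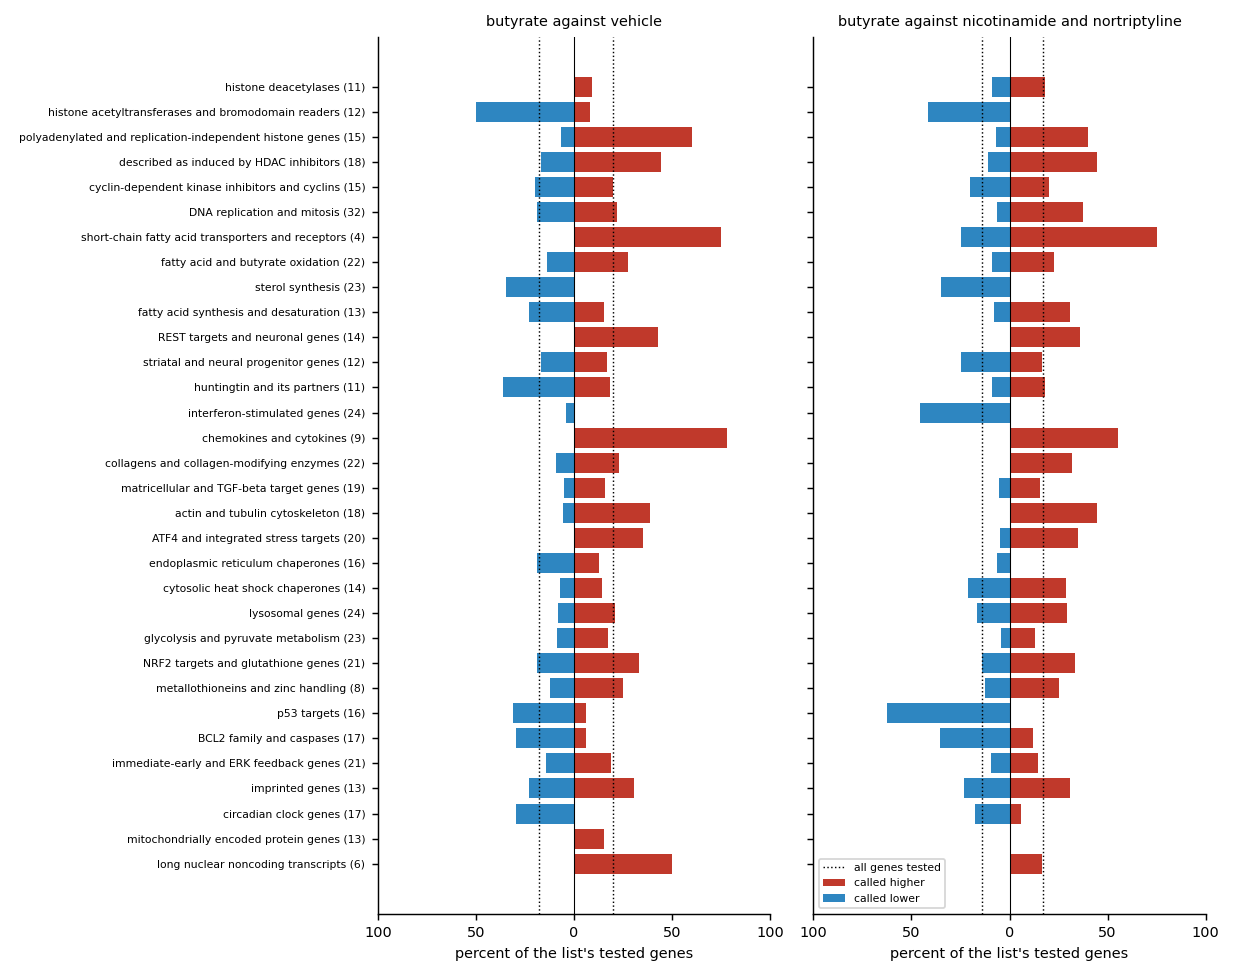
Share of the tested genes of each of 32 lists that were called higher (right) or lower (left) under butyrate against vehicle and against nicotinamide and nortriptyline, with the number tested in brackets and dotted lines at the shares over all genes. The p53 list reaches furthest to the left against the second control, with 10 of 16 genes lower, and the interferon-stimulated genes change between the panels.

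Among the other lists, circadian clock genes had 5 lower and 0 higher of 17 against vehicle and 3 lower and 1 higher against the second control, with Per1 at -0.44 and -0.33. Imprinted genes had 4 higher and 3 lower of 13 in each comparison, with Plagl1 at 0.43 and 0.33 and Grb10, a brake on insulin signalling, at -0.45 and -0.36. Immediate-early genes had 4 higher and 3 lower of 21 against vehicle and 3 higher and 2 lower against the second control, with Jun at 0.45 and 0.29. Of the 13 mitochondrially encoded protein genes 2 were called higher against vehicle and 0 against the second control, where the median log2 fold change was 0.16. Striatal and neural progenitor genes had 2 higher and 2 lower of 12 against vehicle, Nes among the first, and 2 higher and 3 lower against the second control, and the homeobox gene Dlx2 differed by -0.40 and -0.39. Malat1, a long nuclear RNA, stood at 14.18, 13.87 and 14.45 against 13.24, 13.18 and 12.99 with vehicle and 13.47 to 13.76 in the second control (1.03 and 0.55), and 3 of 6 long nuclear noncoding transcripts were called higher against vehicle, where the median was 0.25. Against the second control Malat1 was the 1 transcript of the 6 called and the median was 0.06, and the second control itself had 2 of the 6 called higher than vehicle. Of fatty acid synthesis genes 2 were higher and 3 lower of 13 against vehicle, and 4 were higher and 1 lower against the second control, so the balance turned. Fasn, the fatty acid synthase, had -0.30 and 0.01, while Acly, which makes acetyl-CoA outside mitochondria, fell against both (-0.42 and -0.25). Of heat shock chaperones 2 were higher and 1 lower of 14 against vehicle and 4 higher and 3 lower against the second control, with Hspb1 at 0.74 and 0.65. Metallothionein and zinc genes had 2 higher and 1 lower of 8 in each comparison, and matricellular genes had 3 higher and 1 lower of 19 in each.

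Htt was not called against either control. The huntingtin transcript stood at 7.85, 7.81 and 8.03 with butyrate, 8.10, 8.10 and 7.92 with vehicle and 7.64 to 7.93 with a median of 7.75 in the second control. The differences were -0.14 ± 0.08 (adjusted p = 0.144, limma) and 0.14 ± 0.07 (adjusted p = 0.105), of opposite sign, and Htt itself had -0.28 in the second control against vehicle (adjusted p = 0.00427). The gene overlaps Msantd1 on the same strand, so reads could be shared between them. The transcript is long, with 24438 exonic bases on chromosome 5, and long transcripts as a class had lower medians in all 3 comparisons, as given next, so that Htt had the sign of its class against vehicle but the opposite sign in butyrate against the second control. Of 11 genes of huntingtin and its partners 2 rose and 4 fell against vehicle, and 2 rose and 1 fell against the second control.

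The fold changes against vehicle, of butyrate and of the second control, fell with transcript length. The summed exon length of a gene, from GENCODE on GRCm38, correlated with the log2 fold change of 10727 genes with a mean of at least 5 at a Spearman coefficient of -0.436 for butyrate against vehicle, -0.54 for the second control against vehicle and -0.148 for butyrate against the second control. These are correlations across genes, which share all their samples, and carry no p. In the shortest of 5 equal groups of genes, up to 2678 bases, the median for butyrate against vehicle was 0.12, with 758 genes called higher and 91 lower, and in the longest group, from 7954 bases, it was -0.14, with 136 higher and 933 lower. Against the second control the medians were 0.03 and -0.04, and for the second control against vehicle 0.10 and -0.10. The difference between the median deviations of the longest and shortest groups was 0.233, 0.163 and -0.0177 in the vehicle samples, -0.168, -0.165 and -0.0861 in the butyrate samples and -0.175 to 0.00675 in the second control. It did not overlap between butyrate and vehicle, yet 3 samples against 3 cannot go below p = 0.1 in a two-sided exact permutation test, and p was 0.1. It was 0.167 for butyrate against the 6 samples of the second control and 0.0238 for these against vehicle (exact permutation tests, smallest possible p 0.0119). With Benjamini-Hochberg adjustment over the 3 comparisons these exact permutation p-values were 0.15, 0.167 and 0.0714, in the same order, so none passed. The 12 named falls had a median exon length of 8677 bases, the 12 rises one of 2636 and all genes one of 4455. With the length trend removed from each sample, 4645 genes were called against vehicle and 4276 against the second control, 2970 of them the same way against both, and no named rise or fall lost its call. The part of RNA quality, library or collection slot in this pattern was not tested.

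**Figure D5:**
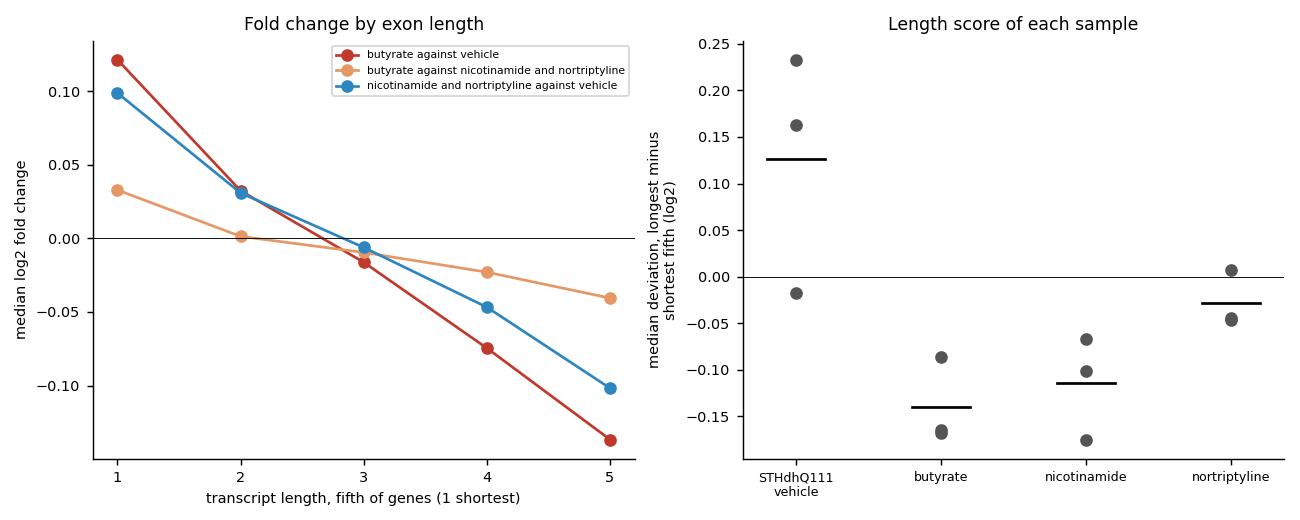
Left, median log2 fold change of 5 equal groups of genes ordered by exon length for 3 comparisons. Right, difference of the median deviations of the longest and the shortest group in each sample of 4 conditions, with a bar at the mean. Both comparisons with vehicle fall from short to long transcripts, and 2 of the 3 vehicle samples stand above all others.

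STHdhQ7 and STHdhQ111 cells with vehicle differed in 7483 genes (55.8%), 3916 higher in STHdhQ7 (29.2%) and 3567 lower (26.6%). Whether butyrate moved these genes towards STHdhQ7 was read in its comparison with nicotinamide and nortriptyline, which shares no sample with the genotype comparison. Of the 4132 genes called for butyrate there, 2577 were called between the genotypes, 62.4% of the butyrate genes and 34.4% of the genotype genes. These shares lie near those of all genes, 55.8% called between the genotypes and 30.8% called for butyrate. Of the 2577 genes, butyrate moved 1588 towards STHdhQ7, or 61.6%, and 989 away from it. Neither the overlap nor this share was tested. Nes moved towards STHdhQ7, from means of 4.96 with vehicle and 5.04 in the second control to 6.25, where STHdhQ7 had 10.95. L1cam, with a mean of 8.60 in STHdhQ7, and Adgrg1, with 8.13, also moved that way. Cdkn1a moved away, since STHdhQ7 stood higher, at 10.72, and so did Psca and Cxcl1, which were lower in STHdhQ7 than in STHdhQ111 but higher with butyrate. The 12 rises held 7 genes higher and 2 lower in STHdhQ7, and the 12 falls 3 higher and 8 lower.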

How the data were processed

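Polyadenylated RNA was sequenced as single-end 50 bp reads from a strand-marking library. Per the labels and the study's methods, the authors trimmed reads with Trimmomatic 0.36, quantified them with RSEM on GRCm38.p5 and normalized them with DESeq2. They deposited a table of normalized abundances on a log2 scale, and the transformation is not named in the sources used here. The table has 27281 rows, of which 18178 have a gene symbol, and all its sample columns belong to the 48 samples. It holds no counts, so depth is unknown and no interval from counting error is given.

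From these values limma 3.58.1 (R 4.3.3) was fitted to all 48 samples with 16 conditions and collection day, with a variance trend. A gene was tested with a symbol and a mean of at least 1, and called at a Benjamini-Hochberg adjusted p under 0.05 over all 13409 genes tested. On simulated data the test against vehicle found 97 of 100 genes changed by 0.5 (log2) and 100 of 100 changed by 1, with 12 false calls, over 13409 genes. The changed genes had a mean of at least 5, and the noise was independent between genes. No effect of collection slot or transcript length was simulated, so the false calls do not give the rate in the real data. Between the controls 1 gene was called in the simulation, where the real data gave 1632. In the labels the replicate number of the conditions compared is the collection day, so the day term is the pairing. Deviations of butyrate and vehicle samples of the same day correlated at -0.167, -0.158 and -0.317.

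Genes named were Htt, Cdkn1a, H1f0, Hdac1 to Hdac11 and Slc16a1. Also named were the 12 largest rises and 12 largest falls against vehicle among genes called the same way against both controls. These had to have a mean of at least 5 and each butyrate sample on the same side of both control means. Of each list, up to 4 called members with the largest change were named. Some genes that this rule names are not reported here. Other members named were chosen after their values were seen. The comparison, the lists and the rule were chosen with earlier results of these data known. Lists are given by counts and medians beside all genes, with no set test. Alternatives covered filters, model terms, scaling, controls and leaving out each sample. Removal of the transcript length trend was added after the data were seen.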

Additional observations from a re-analysis of the deposited data

How the results depend on the processing

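The counts for butyrate against vehicle (5023), against nicotinamide and nortriptyline (4132), and in the same direction against both (2976) stayed within 1.5 times of these values under every alternative run except a minimum absolute log2 fold change of 0.5, which left 478, 359 and 260 genes. That minimum left 37 of the 1632 genes called between the controls. This count was also 513 with nortriptyline alone and 954 with the length trend removed, where 48.2% of the calls were higher in place of 30.3%. The cause was not tested. With a minimum mean of 5 the share of higher calls against both controls went from 59.1% to 48.4%.

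Leaving out 1 sample at a time gave 3699 to 4927 genes against vehicle, 3020 to 3884 against the second control, 2228 to 2914 against both, 1213 to 1560 moved towards STHdhQ7, and 334 to 1927 between the controls.

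Pairing by day is part of the model. With no replicate block, meaning no day term, the counts were 5257, 4369, 1857 and 3155, and with the replicate number as a block in place of the day 5056, 4156, 1654 and 3001, so neither moved a count by over 1.5 times.

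Of the values of the named genes over all alternatives, 1456 kept their direction and side of the threshold, 15 lost a call, 9 gained 1 and 0 reversed. Htt gained a call against the second control with nicotinamide alone (0.21, adjusted p = 0.0439, limma) and with the length trend removed (0.20, adjusted p = 0.00605), and against vehicle without butyrate replicate 3 (-0.22, adjusted p = 0.0422). No named rise or fall lost its call against vehicle. Of list medians 1117 stayed within the spread between replicates and 99 moved beyond it. Without counts the precision of low genes cannot be given.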

Other observations

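Rows without a gene symbol were left out of the comparisons above. Tested together with the named genes, 2205 of them reached the minimum, and 293 were called against vehicle, 188 higher and 105 lower (limma, adjusted p under 0.05 over 15614 rows). Against nicotinamide and nortriptyline 187 were called, 92 higher and 95 lower. The largest change was in the pseudogene Gm45551, which stood at 7.64, 7.82 and 7.81 with butyrate and at 6.91, 6.66 and 6.57 with vehicle, a rise of 1.04 ± 0.12 and of 0.83 against the second control. Sh3gl3, an endophilin of synaptic vesicle recycling, stood at 4.96, 4.98 and 4.92 against 4.40, 4.28 and 4.48 (0.57 ± 0.07, and 0.51 against the second control). The pseudogene Gm10232 stood at 6.01, 5.26 and 5.00 against 6.76, 6.60 and 6.01 (-1.03 ± 0.41, adjusted p = 0.0472), and reads of a pseudogene may come from its parent gene. Neat1, the RNA of nuclear paraspeckles, had 0.38 ± 0.18 against vehicle (adjusted p = 0.111).

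Interferon-stimulated genes also differed elsewhere in the series. The median deviation of the 24 genes was -0.433, -0.608 and -0.557 with trichostatin A, where 8 of 24 were called lower, and -0.301 to 0.382 in the 6 samples of haloperidol and fingolimod phosphate from the same collection slots. In the 3 vehicle samples of STHdhQ7 it was -1.309, -2.311 and -2.106.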
